A study of Mus musculus with 22 samples.

Results

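The Usp17-like genes of the mouse, Usp17la, Usp17lb, Usp17lc, Usp17ld and Usp17le, code for closely related deubiquitinating enzymes. They were taken by symbol from GENCODE M21, the mouse gene annotation on GRCm38, and are 5 of the 55487 genes listed in each deposited table. RNA was sequenced from Dux-/- mouse embryonic stem cells (mESCs, the pluripotent cells of the early embryo kept in culture) that carried a doxycycline-inducible transgene. DUX, a transcription factor with a pair of homeodomains, activates a programme of genes that is normally used in the 2-cell embryo, and the study compared full-length DUX with derivatives of it. Cells were grown in 2iLIF medium, left for 24 h after plating and then given 0.25 ug/mL doxycycline for 12 h. The labels describe no clone, passage or batch, so p-values here measure only the spread between the 2 libraries within groups, which may be technical. In the main test that spread was pooled over all groups of a table.

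Every group shared the Dux-/- genotype and the doxycycline. FL carried mCherry joined to full-length DUX, and mCherry carried the red fluorescent tag alone. C3+14, C1+14, C1C3a, C1C3b and C1C3c carried mCherry-tagged DUX derivatives, and with FL and mCherry they form the chimera table of 14 libraries in 7 groups. C12345delt14, deltC12345+14 and deltC12345delt14 carried other tagged derivatives, and with FL they form the deletion table of 8 libraries in 4 groups. The labels do not say what C1, C3, 14, a, b and c stand for. The promoter and the cells in which the transgene is expressed are not given in the sources used here beyond its induction by doxycycline. The 2 tables were scaled separately and hold the same FL libraries, so groups were compared only within a table.

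Ubiquitin is a small protein that is joined to other proteins, where it can mark them for the proteasome or change their activity. Deubiquitinating enzymes of the ubiquitin-specific protease (USP) family are cysteine proteases that remove it. The Usp17-like genes, also called Dub genes, were first described in blood cells as genes induced by cytokines, and their copies lie in clusters among olfactory receptor genes. They are also among the genes that DUX switches on in mESCs and that are transcribed in the 2-cell embryo.

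The members lie on chromosome 7 of GRCm38 in 2 clusters. Usp17ld (ENSMUSG00000057321, also Dub2a) occupied chr7:103249737-103252505 on the minus strand, and Usp17lc (ENSMUSG00000058976, also Dub2) chr7:103415072-103419880 on the plus strand, 163 kb away. The second cluster began 1348 kb further on. It held Usp17le (ENSMUSG00000043073, also Dub3) at chr7:104768049-104777470 on the minus strand, Usp17lb (ENSMUSG00000062369, also Dub1a) at chr7:104840257-104842603 on the minus strand and Usp17la (ENSMUSG00000054568, also Dub1) at chr7:104857009-104862667 on the plus strand. Usp17lb and Usp17la were 14.4 kb apart. All 5 are annotated as protein coding, with 526 codons in Usp17la, 468 in Usp17lb, 545 in Usp17lc and Usp17ld, and 540 in Usp17le. The miRNA gene Gm25774 overlaps Usp17lc on the same strand.

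The coding sequences are 90.7% to 98.4% identical, with Usp17lc and Usp17ld the closest pair, so it matters how far reads can tell the copies apart. The following stretches of 60 coding bases, from the GENCODE M21 transcripts, are shown because any 2 members differ there at 3 positions or more. Capitals mark the 16 positions at which the members differ. The stretch covers coding bases 1147 to 1206 of Usp17la, Usp17lc and Usp17ld, 1144 to 1203 of Usp17lb and 1249 to 1308 of Usp17le, counted from the A of the start codon.
Usp17la: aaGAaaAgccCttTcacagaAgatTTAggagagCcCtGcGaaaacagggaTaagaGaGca
Usp17lb: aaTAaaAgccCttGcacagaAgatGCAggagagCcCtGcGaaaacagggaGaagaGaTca
Usp17lc: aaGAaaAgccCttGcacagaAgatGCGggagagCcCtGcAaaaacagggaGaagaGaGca
Usp17ld: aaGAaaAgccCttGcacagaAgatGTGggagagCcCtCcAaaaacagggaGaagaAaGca
Usp17le: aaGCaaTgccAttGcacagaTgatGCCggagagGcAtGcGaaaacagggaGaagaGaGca

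Of all stretches of 50 bases in a member's transcripts, 15.3% were also found in another member for Usp17la, 20.1% for Usp17lb, 24.4% for Usp17le, 44.5% for Usp17lc and 50.4% for Usp17ld. Most of the overlap of the last pair was mutual, since 50.4% of the stretches of Usp17ld and 41.5% of those of Usp17lc were common to both. Usp17la and Usp17le shared 11.2% and 15.3% of their stretches with each other. How reads that match several genes were counted is not given in the sources used here, so the split of reads between Usp17lc and Usp17ld is the least certain.

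The 250 bases before the RefSeq start of 4 members (RefSeq on GRCm38.p6) are shown because all 5 members were called higher with FL than with mCherry while they differed among other constructs. Usp17le is not among them. Capitals mark the inverted CCAAT box (ATTGG) on either strand. They also mark the TATA box (TATAAAA). Each is written 5′ to 3′ on the strand of the gene. The windows are chr7:104856766-104857015 for Usp17la, chr7:104842584-104842833 for Usp17lb, chr7:103416446-103416695 for Usp17lc and chr7:103252506-103252755 for Usp17ld. RefSeq and GENCODE starts differ, and the window of Usp17lc lies inside its GENCODE gene, downstream of the start annotated there. Those of Usp17la and Usp17lb reach into the first bases of their GENCODE genes.
Usp17la: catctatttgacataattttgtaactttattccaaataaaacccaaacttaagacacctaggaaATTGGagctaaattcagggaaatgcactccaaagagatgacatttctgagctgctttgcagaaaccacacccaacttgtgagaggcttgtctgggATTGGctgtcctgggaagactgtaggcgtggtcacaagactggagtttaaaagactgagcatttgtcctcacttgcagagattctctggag
Usp17lb: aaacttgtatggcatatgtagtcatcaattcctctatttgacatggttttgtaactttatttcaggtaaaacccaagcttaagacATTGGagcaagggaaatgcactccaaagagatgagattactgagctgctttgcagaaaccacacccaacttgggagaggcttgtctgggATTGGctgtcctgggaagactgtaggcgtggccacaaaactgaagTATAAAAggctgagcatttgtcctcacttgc
Usp17lc: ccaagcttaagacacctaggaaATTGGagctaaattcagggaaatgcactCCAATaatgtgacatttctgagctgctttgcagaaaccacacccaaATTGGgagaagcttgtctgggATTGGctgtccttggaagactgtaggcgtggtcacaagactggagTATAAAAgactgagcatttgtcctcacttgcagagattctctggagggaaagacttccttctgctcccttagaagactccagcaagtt
Usp17ld: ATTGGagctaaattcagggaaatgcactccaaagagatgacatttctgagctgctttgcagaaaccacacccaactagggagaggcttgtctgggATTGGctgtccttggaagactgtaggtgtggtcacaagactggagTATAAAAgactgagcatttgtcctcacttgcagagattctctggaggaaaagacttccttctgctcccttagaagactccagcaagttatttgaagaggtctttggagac

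The windows were 90.3% to 97.3% identical over their aligned bases. Both motifs were searched on both strands. ATTGG was found in all 4 windows and in 33.8% of the 32851 promoter windows of the same length. TATAAAA was found in Usp17lb at bases -31 to -25 before the RefSeq start, in Usp17lc at -88 to -82 and in Usp17ld at -110 to -104, and in 4.98% of all windows. A match is a description of the letters in a window and not a measured binding site.

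Library totals ran from 21059953 to 40448890 reads, and 1 read was worth 0.620 to 1.81 normalised reads, that is reads divided by the authors' size factor for the library. Duxf3, the annotated Dux gene, had 0 reads in all 14 libraries of the chimera table and in all 8 of the deletion table, so it does not check the labels of the transgenes. All 7 pluripotency markers examined, Pou5f1, Sox2 and Nanog among them, were detected in every group. Their summed level was 80300 to 81019 normalised reads in mCherry and 27042 to 29949 in C1C3b. Summed markers of feeder fibroblasts stayed between 33.9 and 161 normalised reads in the chimera table. In a set of 1613 genes most of whose sequence is held by many annotated genes, C3+14 and mCherry had 0.298% to 0.346% of their reads, and the other 5 groups of the chimera table had 1.67% to 2.15%. C12345delt14 lay with the latter, while deltC12345+14 and deltC12345delt14 had a library on either side. A comparison across that divide cannot be told apart from whatever made the libraries differ. C1C3a, C1C3b and C1C3c are therefore also set against C1+14, and C1C3a and C1C3b against FL, which lie on their side. FL and C1+14 were not set against each other, so their rises over mCherry rest on comparisons that cross the divide.

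RNA of all 5 members was close to absent in cells with the tag alone and abundant in cells with FL. The mCherry libraries held 1 and 2 reads for the whole family. Usp17la, Usp17lb and Usp17le had 0 reads in both, Usp17lc had 1 read in each, and Usp17ld had 0 and 1. A count of 0 is compatible with up to 3 reads, which corresponds to 1.98 and 2.57 normalised reads in these libraries, and such limits cover counting error only. In FL the 5 genes together took 0.512% and 0.430% of all reads of the library.

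Usp17le was the most abundant member in FL. It stood at 132138 and 79498 normalised reads, a mean of 105818 ± 37222 (SD, n = 2). Usp17la had 37768 and 27279, Usp17lb 30151 and 22772, Usp17lc 21801 and 15398, and Usp17ld 20891 and 15765. The first FL library was the higher for each member, and no FL library overlapped with mCherry for any of them. Per kb of exon, Usp17le had 53255 ± 18733 normalised reads (SD, n = 2) in FL, followed by Usp17lb at 16952 ± 3342, Usp17la at 12245 ± 2793, Usp17ld at 9224 ± 1824 and Usp17lc at 7582 ± 1846. Usp17ld and Usp17lc, neighbours in that order, differed by less than their SD.

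Against mCherry, all 5 members were called higher in FL by limma, beside 24.5% of the 21584 genes tested. A gene was called where its p, adjusted over all tested genes by Benjamini-Hochberg, was under 0.05 and its log2 fold change was 1 or more in size. The fold was at least 46484 for Usp17le, at least 14287 for Usp17la and at least 11624 for Usp17lb, computed against 3 reads per mCherry library. For Usp17lc the ratio was 24479-fold with a 95% exact counting interval of 6776 to 202145, since mCherry held 2 reads of it. This comparison crosses the divide in multi-copy genes described above.

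**Figure D1:**
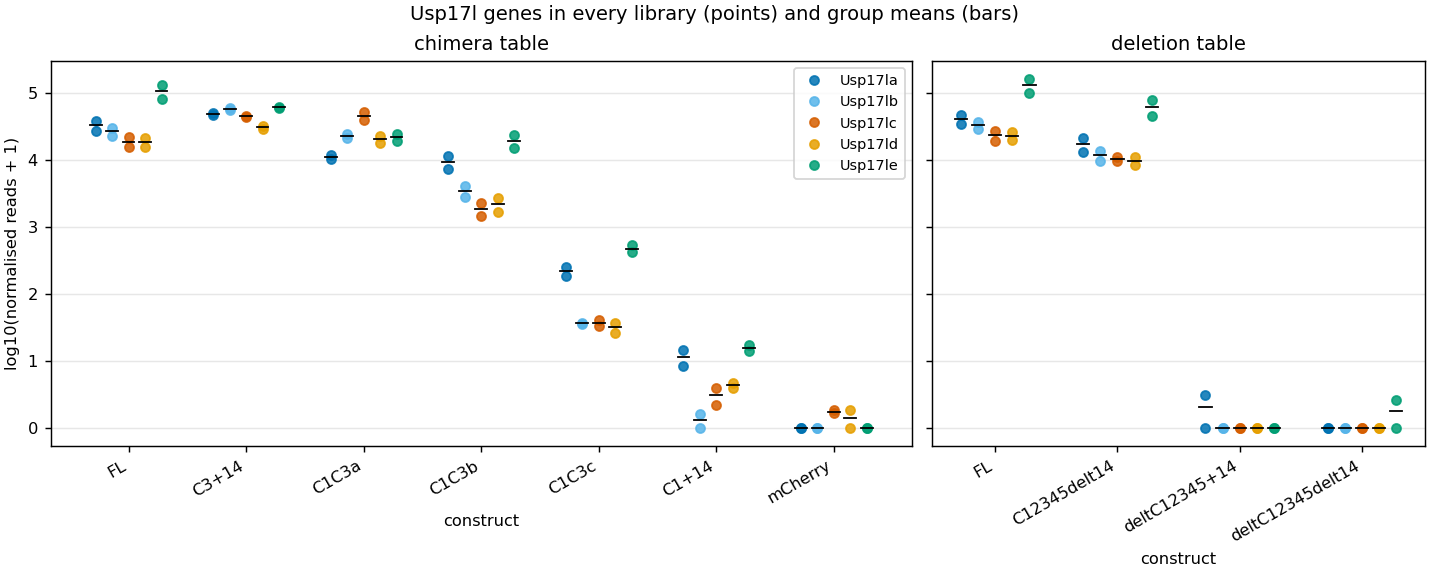
Normalised reads of each Usp17-like gene in every library, plotted as log10(normalised reads + 1) by construct, with points for the 2 libraries and a bar at the group mean. In the chimera table the values fall from FL, C3+14 and C1C3a through C1C3b and C1C3c to C1+14 and mCherry. In the deletion table FL and C12345delt14 stand apart from both constructs named deltC12345, which hold at most 3 reads of any member.

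In C3+14 the family was at its highest as a share of the library, 0.663% and 0.696% of all reads. Here the members were closer to each other than in FL. Usp17le had 59919 and 62243 normalised reads, Usp17lb 55533 and 58592, Usp17la 46530 and 50209, Usp17lc 43076 and 45567, and Usp17ld 28982 and 31860. All 5 were called higher than in mCherry by limma, against 29.6% of all genes tested, and both groups lie on the same side of the divide in multi-copy genes. Folds against 3 reads per mCherry library were at least 26832 for Usp17le, at least 25066 for Usp17lb and at least 21248 for Usp17la.

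Set against FL, C3+14 had more Usp17lb and Usp17lc. Usp17lb was 2.16-fold higher (log2 fold change 1.12, SE 0.23, limma adjusted p = 0.0020), and Usp17lc was 2.38-fold higher (1.27, SE 0.28, limma adjusted p = 0.0030). These 2 of 5 members were called higher, against 16.8% of all genes tested. Usp17le, the leading member in FL, went the other way, with a log2 difference of -0.75 (SE 0.24, limma adjusted p = 0.026) that was under the size threshold. The call of Usp17lb depended on the libraries, since it was 0.92 on the log2 scale without FL replicate 2, while Usp17le then reached -1.11 and was called lower. The comparison crosses the divide in multi-copy genes.

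In C1C3a, Usp17lc had the highest mean per kb of exon, 18557 ± 4002 normalised reads (SD, n = 2), followed by Usp17lb at 14719 ± 1427, and in the first library these 2 were level. The family took 0.311% and 0.313% of all reads. Usp17lc had 38578 and 52462 normalised reads, and the C3+14 libraries lay within that range. Usp17lb had 24551 and 21401, Usp17le 19106 and 23965, Usp17ld 18033 and 22812, and Usp17la 11806 and 10245. All 5 were called higher than in mCherry by limma (27.4% of all genes tested were) and all 5 higher than in C1+14 (23.4%), the latter without crossing the divide.

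Against FL, C1C3a had 4.91-fold less Usp17le (log2 fold change -2.26, SE 0.24, limma adjusted p = 3.51e-05) and 2.95-fold less Usp17la (-1.55, SE 0.26, limma adjusted p = 0.0010). Usp17lc was 2.45-fold higher (1.30, SE 0.28, limma adjusted p = 0.0049). Usp17lb and Usp17ld were not called, with log2 differences of -0.19 (95% interval -0.70 to 0.31) and 0.16 (-0.49 to 0.82). Of all genes tested, 11% were called higher and 4.62% lower. Within this contrast, members of 1 family were thus called in opposite directions. The call of Usp17lc was lost without C1C3a replicate 2 (log2 fold change 1.07, limma adjusted p = 0.058) and when only C1C3a and FL were fitted (1.30, limma adjusted p = 0.072), so the opposite directions rest on that call.

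All 5 members were present in C1C3b, at unequal levels. Usp17le had 14789 and 23323 normalised reads, a mean of 19056 ± 6034 (SD, n = 2), and Usp17la had 7412 and 11341. Usp17lb followed with 2797 and 4116, Usp17ld with 1655 and 2727, and Usp17lc with 1432 and 2297. The second C1C3b library was the higher for each member, and the range of Usp17le did not overlap with that of any other member. Per kb of exon the order was Usp17le at 9590 ± 3037 normalised reads (SD, n = 2), Usp17la at 3530 ± 1046, Usp17lb at 2214 ± 598, Usp17ld at 1103 ± 381 and Usp17lc at 760 ± 249. Usp17ld lay above Usp17lc in both libraries, and the difference of their means was smaller than the SD of Usp17ld and larger than that of Usp17lc. The family took 0.127% and 0.201% of all reads.

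All 5 members were called higher in C1C3b than in mCherry by limma, against 27.6% of all genes tested. Usp17le was at least 8371-fold, Usp17la at least 4119-fold and Usp17lb at least 1518-fold higher, against 3 reads per mCherry library. Usp17ld was 5826-fold higher with a counting interval of 1045 to 230148, and Usp17lc 2480-fold with an interval of 686 to 20485. Against C1+14, on the same side of the divide, all 5 were again called, against 17.9% of all genes tested, with Usp17le 1302-fold, Usp17lc 896-fold, Usp17la 895-fold and Usp17ld 659-fold higher. The C1+14 libraries held 4 and 2 reads of Usp17lc and 4 and 6 of Usp17ld, so the folds of these 2 genes are rough. The median log2 difference of the members in that comparison was 9.70, beside 0.15 over all genes tested.

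Set against FL, C1C3b had less of every member. Usp17la fell the least, 3.47-fold (log2 fold change -1.81, SE 0.26, limma adjusted p = 6.76e-05), then Usp17le 5.55-fold (-2.46, SE 0.24) and Usp17lb 7.66-fold (-2.95, SE 0.23). Usp17ld fell 8.37-fold (-3.09, SE 0.30) and Usp17lc 9.98-fold (-3.34, SE 0.28, limma adjusted p = 6.66e-07). These 5 of 5 compare with 19.7% of all genes tested that were called lower. The median over the members was -2.95, beside -0.09 over all genes. Under quantile normalization the falls were smaller, at -1.27 for Usp17le, -2.09 for Usp17lb, -2.39 for Usp17ld and -2.66 for Usp17lc on the log2 scale, and Usp17la differed by -0.82 and was no longer past the size threshold. Markers of other cell types also differed between C1C3b and FL. All 4 primitive endoderm markers were called higher, at a summed 332 to 416 normalised reads against 59.5 to 79.6 in FL. Of the trophectoderm markers 2 of 4 were higher and 0 lower (516 to 650 against 471 to 557), and of the feeder markers 2 of 5 were higher and 2 lower (94.7 to 128 against 90.5 to 161). The share of all genes called higher in this comparison is not given here, so these counts cannot be set against it. Median log2 differences were 3.25 for primitive endoderm, 1.17 for trophectoderm and 2.08 for feeder markers, beside -0.09 over all genes. The part of these markers in the result was not tested.

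Set against C3+14, all 5 were lower as well (16.5% of all genes tested were called lower). Usp17le fell 3.20-fold (log2 fold change -1.72, SE 0.24), Usp17la 5.16-fold (-2.40, SE 0.26), Usp17ld 13.9-fold (-3.84, SE 0.30), Usp17lb 16.5-fold (-4.07, SE 0.23) and Usp17lc 23.8-fold (-4.61, SE 0.28). This comparison crosses the divide in multi-copy genes, and under quantile normalization the difference of Usp17le was -0.67 and not called, while the others were -1.45 for Usp17la, -3.24 for Usp17ld, -3.18 for Usp17lb and -3.91 for Usp17lc. FL and C3+14 are each set against the same C1C3b libraries, so these comparisons are not independent of each other.

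Between C1C3b and C1C3a the family split. Usp17le and Usp17la were at similar levels in both and were not called, whereas Usp17lb, Usp17ld and Usp17lc were lower in C1C3b. Usp17le differed by -0.20 on the log2 scale (SE 0.24, 95% interval -0.73 to 0.32, limma adjusted p = 0.50). Its C1C3b libraries, 14789 and 23323, overlapped with its C1C3a libraries, 19106 and 23965, with the lowest value in C1C3b and the highest in C1C3a. Usp17la differed by -0.26 (SE 0.26, 95% interval -0.83 to 0.31, limma adjusted p = 0.42), again with overlapping libraries. These intervals leave room for a difference in either direction, and under quantile normalization both values were above 0, at 0.72 for Usp17le and 0.46 for Usp17la.

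The other 3 members were called lower, against 17.3% of all genes tested. Usp17lb fell 6.65-fold (log2 fold change -2.76, SE 0.23, limma adjusted p = 8.25e-07) and Usp17ld 9.32-fold (-3.25, SE 0.30, limma adjusted p = 1.95e-06). Usp17lc fell 24.4-fold (-4.63, SE 0.28, limma adjusted p = 3.36e-08), from the highest mean of the members per kb of exon in C1C3a to the lowest in C1C3b. For each of the 3 the libraries of the constructs did not overlap. Leaving out each library in turn left the fall of Usp17lb between -3.03 and -2.48, that of Usp17ld between -3.61 and -2.89 and that of Usp17lc between -4.97 and -4.29. Under quantile normalization they were -1.98, -2.56 and -3.77, and all 3 were still called. The members that fell did not all lie together, since Usp17lb lies between Usp17le and Usp17la on the chromosome.

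Other genes of the 2-cell embryo also fell in this comparison. Zscan4c, Zscan4d and Zscan4f, which code for zinc finger proteins of the 2-cell stage, were 23.0-, 18.0- and 21.5-fold lower in C1C3b than in C1C3a. Tcstv1 and Tcstv3, of another 2-cell family, were 212- and 155-fold lower, and Zfp352 was 628-fold lower. All 6 genes of this list were called lower by limma. Their median log2 difference was -5.87, beside -2.76 for the Usp17-like genes and -0.07 for all genes tested. Of the pluripotency markers, 4 of 7 were also called lower, with a summed level of 27042 to 29949 normalised reads in C1C3b and 43308 to 50003 in C1C3a. Summed markers of primitive endoderm were 332 to 416 in C1C3b and 99.1 to 227 in C1C3a, with 0 of 4 called by limma. Of 5 feeder fibroblast markers 3 were called higher in C1C3b (Col3a1, Col1a2 and Postn) and 2 lower (Thy1 and Col1a1), at summed levels of 94.7 to 128 normalised reads in C1C3b and 118 in both C1C3a libraries. Of 4 trophectoderm markers, Elf5 was called higher and Krt8 lower, at summed levels of 516 to 650 in C1C3b and 708 to 827 in C1C3a. Of all genes tested, 17.3% were called lower in this comparison, and the share called higher is not given here. The part of these markers in the result was not tested, and in bulk RNA fewer transcribing cells and less RNA per cell cannot be told apart.

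**Figure D2:**
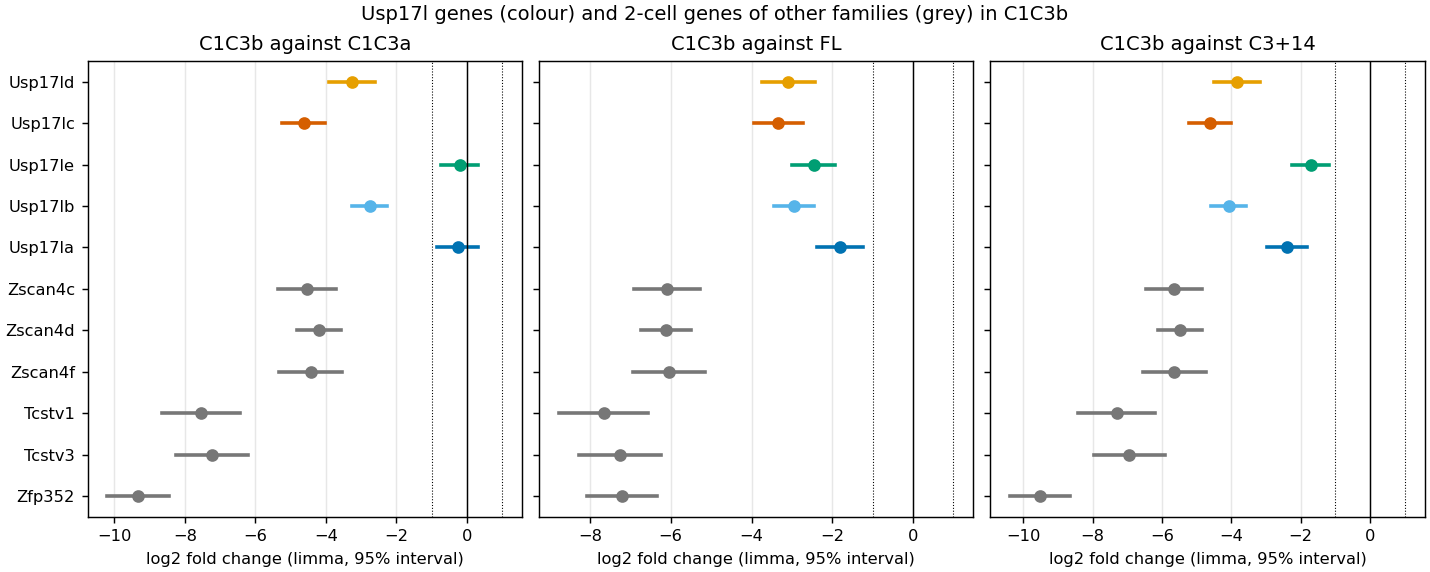
Log2 fold change of the 5 Usp17-like genes (coloured) and of 6 other 2-cell genes (grey) in C1C3b against C1C3a, FL and C3+14, with 95% intervals from limma, and dotted lines at a log2 fold change of -1 and 1. In the left panel the intervals of Usp17le and Usp17la include 0, while Usp17lc lies at -4.63. In all 3 panels Tcstv1, Tcstv3 and Zfp352 lie further to the left than any Usp17-like gene.

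A ratio between members of the same library does not depend on how libraries were scaled. It can still depend on how reads that match several genes were counted, which is not given in the sources used here. Stretches found in another member made up 44.5% of Usp17lc and 24.4% of Usp17le. C3+14 lies across the divide in multi-copy genes from the other constructs named here. Per kb of exon, Usp17le exceeded Usp17lc 7.48- and 6.37-fold in the FL libraries, 1.72- and 1.69-fold in C3+14, and 12.7- and 12.5-fold in C1C3b. In C1C3a the ratio was below 1, at 0.611 and 0.564. In C1C3c it was 20.3 and 12.8, and in C12345delt14 8.75 and 5.79. The replicates lay close together in C3+14, C1C3a and C1C3b and further apart in C12345delt14 and in C1C3c, where Usp17lc rested on 43 and 59 reads. The values of C1C3b, C3+14 and C1C3a did not overlap with those of any of the other 2 or of FL. With 2 libraries against 2 an exact permutation test cannot give a p below 0.333, so no test is given for ratios.

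As shares of the summed family per kb of exon, Usp17le made up 55.7% and 50.6% in FL and 55.4% and 56% in C1C3b. It made up 26.1% and 25.6% in C3+14, where Usp17lb led with 30.8% and 30.7%, and 17.6% and 19.3% in C1C3a. Usp17lc ranged from 4.34% and 4.47% in C1C3b to 28.8% and 34.2% in C1C3a. Usp17la went from 8.14% and 6.17% in C1C3a to 20.8% and 20.4% in C1C3b. The makeup of C12345delt14 was near that of FL, with 59.2% and 53.8% Usp17le. The limits given for the ratios hold for these shares as well.

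**Figure D3:**
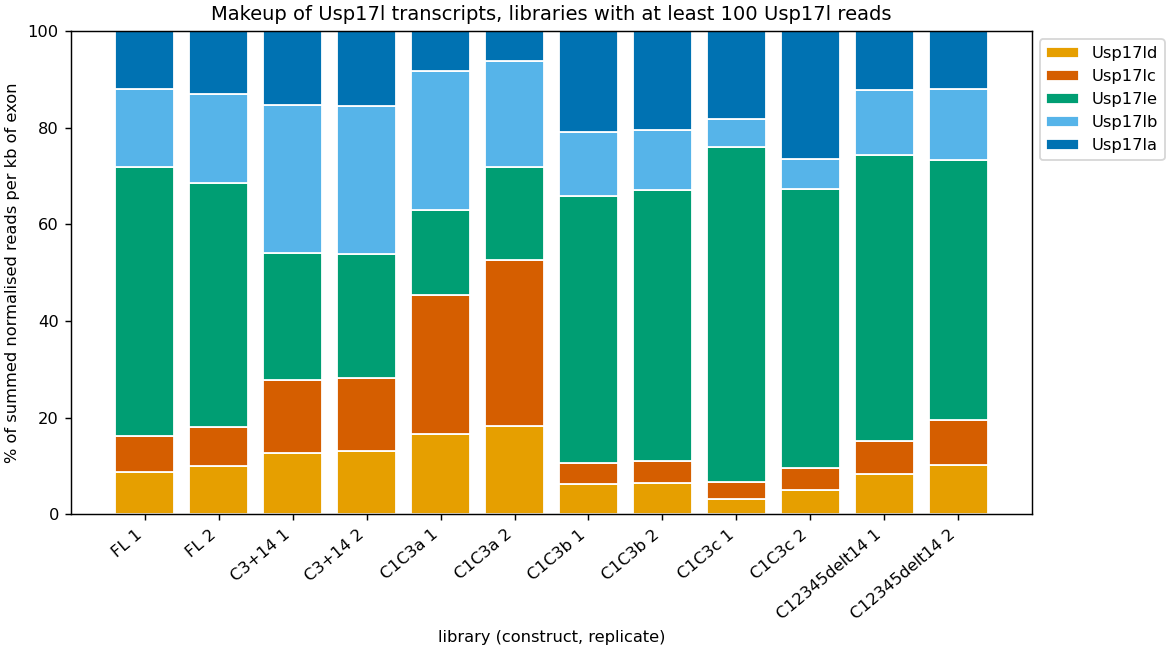
Share of each Usp17-like gene in the summed normalised reads per kb of exon, in percent, for every library with at least 100 reads of the family, with the 2 libraries of a construct side by side. Usp17le takes over 50% in FL, C1C3b, C1C3c and C12345delt14, and under 27% in C3+14 and C1C3a. Usp17lb takes more than Usp17le in C3+14, and Usp17lb and Usp17lc each do in C1C3a. C3+14 lies across the divide in multi-copy genes from the other constructs shown.

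In C1C3c the family was present at a level far below that in C1C3b. Usp17le had 534 and 415 normalised reads and Usp17la 186 and 253. Usp17lb had 36.2 and 35.2, Usp17lc 32.4 and 39.9, and Usp17ld 24.9 and 36.5, so these 3 could not be put in an order. The family made up 0.00444% and 0.00441% of all reads, from 1079 and 1153 reads. All 5 were called higher than in mCherry by limma (18.3% of all genes tested were), and all 5 higher than in C1+14 (5.37%). Against C1+14, Usp17le was 32.4-fold, Usp17la 21-fold, Usp17lc 17.4-fold and Usp17ld 9.24-fold higher. The last 2 folds are rough, since they rest on 2 to 6 reads per C1+14 library. The count of members called against C1+14 was 0 of 5 when C1C3c and C1+14 were fitted alone.

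Compared with C1C3c, C1C3b had 40.2-fold more Usp17le, 42.7-fold more Usp17la, 51.6-fold more Usp17lc, 71.4-fold more Usp17ld and 96.9-fold more Usp17lb. All 5 were called by limma, against 7.66% of all genes tested, with adjusted p between 5.56e-09 and 3.13e-08. The log2 fold changes were between 5.30 and 6.53 with SE of 0.23 to 0.30. No library of C1C3b overlapped with C1C3c for any member.

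C1+14 held traces. Its libraries had 36 and 57 reads of the family among 24051548 and 28635782. Usp17le had 13.2 and 16.1 normalised reads and Usp17la 7.31 and 13.6, while Usp17ld had 4 and 6 reads, Usp17lc 4 and 2, and Usp17lb 0 and 1. Usp17le, Usp17la and Usp17ld were called higher than in mCherry by limma, 3 of 5 against 12.4% of all genes tested. The 2 groups lie on different sides of the divide in multi-copy genes. Usp17le was at least 6.43-fold and Usp17la at least 4.60-fold higher, against 3 reads per mCherry library. The call of Usp17ld rested on 10 reads against 1 and was lost in edgeR and DESeq2 (adjusted p = 0.089 and 0.090).

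The order of the constructs by their means was alike for the members at the lower end. For all 5, C1C3b stood above C1C3c, C1C3c above C1+14 and C1+14 above mCherry, although Usp17lb and Usp17lc did not pass the test between the last 2. At the upper end the means of Usp17la, Usp17lb and Usp17ld were highest in C3+14, that of Usp17le in FL and that of Usp17lc in C1C3a, where its libraries overlapped with C3+14. Between C3+14 and FL, which crosses the divide in multi-copy genes, Usp17la (0.59, limma adjusted p = 0.091), Usp17ld (0.74, limma adjusted p = 0.066) and Usp17le (-0.75) were not called, so their order there is not settled. Across the 14 libraries, log2 values of Usp17la and Usp17le correlated at r = 0.997, those of Usp17lc and Usp17ld at 0.996, and those of Usp17lc and Usp17le, the lowest pair, at 0.953. These correlations describe groups that lie far apart, and Usp17lc and Usp17ld share sequence.

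In the deletion table all 5 members were abundant in FL and in C12345delt14, and near or at 0 reads in the other 2 constructs. In C12345delt14 Usp17le had 76731 and 44521 normalised reads and Usp17la 21200 and 13207. Usp17lb had 13700 and 9588, Usp17lc 10832 and 9500, and Usp17ld 10914 and 8410. On the scale of this table FL had 162519 and 99441 for Usp17le and 46452 and 34122 for Usp17la. For each member both C12345delt14 libraries were below both FL libraries.

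The log2 difference of C12345delt14 from FL was -1.50 for Usp17lb (SE 0.29), -1.25 for Usp17la (SE 0.51), -1.23 for Usp17ld (SE 0.28), -1.16 for Usp17lc (SE 0.28) and -1.12 for Usp17le (SE 0.48). Limma's adjusted p ran from 0.057 for Usp17lb to 0.20 for Usp17le, so 0 of 5 members were called, against 0.62% of all genes tested called lower. At an unadjusted p under 0.05 the count was 5 of 5, with edgeR it was 2 of 5, and with DESeq2 5 of 5. When only FL and C12345delt14 were fitted, 4 of 5 were called. The SE of the main test is pooled over all groups of this table. These include deltC12345+14, with 0 and 3 reads of Usp17la, and deltC12345delt14, with 0 and 2 reads of Usp17le. Usp17lb, Usp17lc and Usp17ld had 0 reads in every library of both constructs. Why the count of calls differed between the fits was not tested. The family's share of the library was 0.336% and 0.257%, beside 0.512% and 0.430% in FL.

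Both constructs named deltC12345 held at most 3 reads of the family in a library. The family had 0 and 3 reads in deltC12345+14, the 3 being of Usp17la, and 0 and 2 reads in deltC12345delt14, both of Usp17le. A count of 0 allowed up to 2.10 to 2.49 normalised reads per library. All 5 members were called lower than in FL in each by limma, against 20% and 20.3% of all genes tested. For deltC12345+14 the fall was at least 61511-fold for Usp17le, and for deltC12345delt14 at least 16282-fold for Usp17la, against 3 reads per library.

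C12345delt14 and deltC12345delt14 differ in the part named C12345, and all 5 members were called higher in the former by limma, against 12.6% of all genes tested. Usp17la was at least 6953-fold, Usp17lb at least 4706-fold, Usp17lc at least 4108-fold and Usp17ld at least 3905-fold higher. Between deltC12345+14 and deltC12345delt14 the members had 0 to 3 reads on both sides, too few for a comparison of their levels. The share of all genes called in that comparison is not given here. The libraries of both constructs lie on either side of the divide in multi-copy genes.

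Other USP genes moved in both directions. Of 50 listed, 49 were tested in the chimera table. Relative to mCherry their median on the log2 scale was -0.41 in FL and 0.05 in C1C3b, where all genes tested had 0.09 and 0.15. In FL 2 were called higher and 13 lower, where 24.5% of all genes tested were higher and 19.6% lower. The counts were 5 and 9 in C3+14 (29.6% and 17.7% of all genes), 5 and 8 in C1C3a (27.4% and 19%), and 9 and 9 in C1C3b (27.6% and 17.1%). In C1C3c 7 were higher and 1 lower (18.3% and 10.5%), and in C1+14 2 and 1 (12.4% and 5.95%).

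The other USP genes with the largest changes in C1C3b were far from the size of the Usp17-like ones. Usp26, a germ cell USP on the X chromosome, went from 1.75 normalised reads to 138, a log2 rise of 5.71 (SE 0.53, limma adjusted p = 1.29e-06). Usp25 rose by 3.19 and Usp53 by 2.87. Usp2, which acts in the circadian clock, fell by 4.14, Usp35 by 1.96 and Usp24 by 1.69. In FL, Usp26 and Usp25 rose by 4.26 and 1.58, and Usp49, Usp46 and Usp35 fell by 3.75, 2.85 and 2.09.

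**Figure D4:**
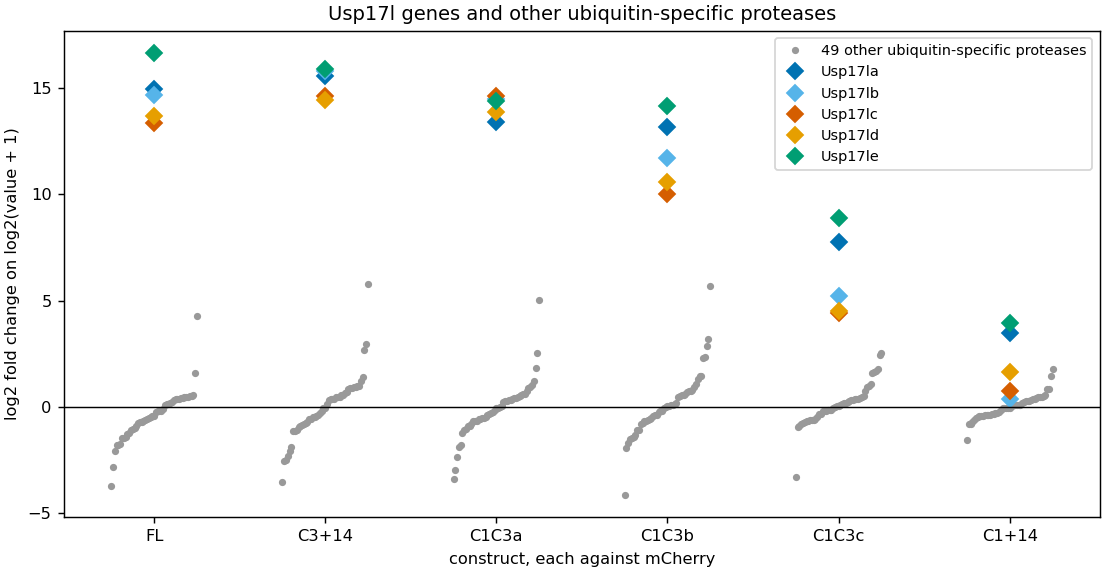
Log2 fold change on the log2(value + 1) scale against mCherry, by construct, of the 5 Usp17-like genes (coloured diamonds) and of 49 other ubiquitin-specific proteases (grey points, spread sideways by rank). The Usp17-like genes lie above 10 in FL, C3+14, C1C3a and C1C3b, and every grey point lies below 6.

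Ubb, a polyubiquitin gene, was not called against mCherry in FL (log2 difference 0.30, SE 0.14) or in C1C3b (-0.16, SE 0.14) by limma. Of 7 genes whose protein products have been described as targets of the human relatives of these enzymes, FL had 1 higher and 2 lower than mCherry and C1C3b had 0 and 1 by limma. Over all genes tested the shares were 24.5% higher and 19.6% lower in FL, and 27.6% and 17.1% in C1C3b. Among them Cdc25a, a cell cycle phosphatase, was lower in FL, with a log2 fold change of -1.74 (SE 0.17, limma adjusted p = 1.89e-06), and differed by -0.74 in C1C3b (SE 0.17, not called). Ddx58, which codes for the RNA sensor RIG-I, was lower in both, by -2.30 in FL (SE 0.47) and -2.84 in C1C3b (SE 0.47). Snai1, a transcription factor of epithelial-mesenchymal transition, rose by 3.74 in FL and was not called in C1C3b (-1.08, SE 0.61).

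Genes whose pattern across the 14 libraries was most like that of Usp17le were predicted genes with no further name in the annotation. By Pearson's r of log2 values among 15867 genes that reached a mean of 50 in any group, they were Gm13043 (r = 0.994), AC133095.2 (0.994), Gm13040 (0.994), Gm13057 (0.994) and Gm13119 (0.993), and 121 genes exceeded 0.95. For the sum of the 5 members the closest was AA623943 (r = 0.994), and 169 genes exceeded 0.95. These correlations have 14 points that share 7 constructs, and they are a description only.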

How the data were processed

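The authors deposited a signal per gene, namely read counts divided by 1 size factor per library, as the table names and the values show. The submitters' processing notes name Trim Galore 0.5.0, FastQC, DESeq2 and mm10 without their roles. The aligner, counter, annotation and treatment of multi-matching reads are not given in the sources used here. Per the labels' protocols, RNA was extracted with TRIZOL and 500 ng entered a TruSeq stranded mRNA kit.

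All 371750 and 202943 values above 0 in the chimera and deletion tables were whole multiples (100%, within 0.001 of a read) of a step per library, so reads were recovered by division. GENCODE M21 gave a symbol to 55227 of 55487 identifiers. Of 22 listed samples in 11 groups, 20 libraries in 10 groups were analysed, and C3delt14 was not analysed here. Replicates differed at 3.31 to 78.9 chi-square per gene, so in no group were the 2 libraries duplicates of each other. Libraries of different groups were not compared in this way.

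The main test was limma 3.58.1 in R 4.3.3 (lmFit, eBayes with trend) on log2(value + 1), a scale that understates the change of low genes. Genes with a value of 10 in 2 libraries were tested (21584 and 19833), all groups of a table shared the spread, and p-values were adjusted over all genes tested. edgeR 4.0.16 and DESeq2 1.42.0 on the recovered reads, pseudocounts of 0.1 and 8, no filter, quantile normalization, a fit of the compared groups alone, a replicate block and leaving out each library were alternatives. Scripts were tested on simulated data.

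Folds against groups with 0 reads used 3 reads per library, and those against 1 to 3 reads have a 95% exact counting interval on pooled reads. Named genes are the 5 members, up to 3 other USP genes called in each direction in C1C3b and FL with a mean of 50 or more in the higher group, and listed genes. The members and lists were chosen with earlier results of these data known. The result of 1 list, of genes that supply ubiquitin, is not reported here as a whole.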

Additional observations from a re-analysis of the deposited data

How the results depend on the processing

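Counts of members called stayed within 1.5 times the main count in 234 combinations of comparison and alternative and moved further in 6, and no fold change of a called member turned direction. The count for C1C3c against C1+14 was 0 instead of 5 when only these 2 groups were fitted, and the count for C3+14 against FL was 1 instead of 2 with a pseudocount of 0.1. For C12345delt14 against FL the count was 4 instead of 0 with a pseudocount of 8, 2 with edgeR, 5 with DESeq2 and 4 with only these groups fitted. The cause was not tested. Leaving out each library in turn gave 3 calls throughout for C1C3b against C1C3a, 2 for C3+14 against FL, 2 to 3 for C1C3a against FL and 0 for C12345delt14 against FL. Quantile normalization moved the median of all genes in C1C3b against C1C3a from -0.07 to 0.12, and in FL against mCherry from 0.09 to -0.27. Of the single fold changes, 1167 kept their side of the threshold, 15 lost a call and 18 gained one. Without FL replicate 2, Usp17lb in C3+14 against FL was 0.92 and no longer called and Usp17le was -1.11 and called. Without C1C3a replicate 2, Usp17lc in C1C3a against FL was no longer called (limma adjusted p = 0.058), nor when only these groups were fitted (limma adjusted p = 0.072). With a replicate block the count for C1C3b against C1C3a was 3 and that for C1C3b against FL was 5, and no other count of members changed. Same-numbered libraries did not deviate together in the chimera table, with correlations of -0.10 to 0.05 over 21 pairs of groups. In the deletion table they ran from -0.57 to 0.14 over 6 pairs, and the lowest means a joint deviation in opposite directions. Multi-copy genes there took 2.31% and 0.396% of reads in deltC12345+14 but 0.425% and 2.59% in deltC12345delt14. Whether these shares go with that correlation was not tested. The numbers were taken only as names of libraries. Depth limits what can be said of mCherry and both deltC12345 constructs, where no member had more than 3 reads in a library, and of Usp17lb, Usp17lc and Usp17ld in C1+14, which had 0 to 6.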

Other observations

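Pseudogenes related to the family did not all move with it. Gm5053 (processed pseudogene, chr7:108527397-108529074, GRCm38) had 1362 and 1708 reads in C1C3b, 418 and 297 in C1C3a, 396 and 440 in FL, 1346 and 1344 in C3+14 and 0 in mCherry. In C1C3b it was 3.17-fold higher than in C1C3a (log2 fold change 1.65, SE 0.38, limma adjusted p = 0.0025) and 2.53-fold higher than in FL (1.32, SE 0.38, limma adjusted p = 0.0084), whereas no Usp17-like gene was called higher in either. Usp17le-ps (chr7:104652252-104653208) had 75 and 102 reads in C1C3b, 101 and 91 in C1C3a and 422 and 262 in FL. It was 5.78-fold lower in C1C3b than in FL (limma adjusted p = 0.0017) and was not called against C1C3a (log2 difference -0.59, SE 0.55). Both share stretches of 50 bases with the members, and how reads matching several genes were counted is not given in the sources used here.

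Within 50 kb of the members lay 20 other annotated genes, of which 7 passed the filter on low values. These include 12 with olfactory receptor symbols, of which 3 passed: Olfr664, Olfr665 and Olfr666. Olfr665 had 48 and 36 reads in FL, 1 and 1 in C1C3b, 5 and 0 in C1C3a and 0 in mCherry. Olfr664 had 19 and 17 in FL, 4 and 3 in C1C3b and 0 in C1C3a. Of the annotated miRNA genes, Gm25774, which overlaps Usp17lc, held 538 and 622 reads in the C1C3a libraries but 15 and 34 in those of C1C3b. Gm23550 held 221 and 264 in the former and 2 and 0 in the latter.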
